A study of Drosophila melanogaster with 2 samples.

Results

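A set of 10 genes that defend cells against oxidative stress was examined for binding of the transcription factor Atf-2 in whole embryos of Drosophila melanogaster. They were chosen by name as the sensor Keap1, the glutathione transferases GstD1 and GstS1, the glutathione synthesis genes Gclc and Gclm, the enzymes Cat, Sod1, Sod2 and Jafrac1, and the autophagy adaptor ref(2)P. These are 10 of 13945 protein-coding genes on the 6 chromosomes used, and all 10 were found in the annotation, Jafrac1 under its current symbol Prx2. Chromatin immunoprecipitation and sequencing (ChIP-seq) had been done with an antibody to GFP on embryos aged 0 to 24 h, male and female pooled, of a transgenic line that stably carries Atf-2 with GFP at its C-terminal end. The single group held 2 biological replicates, numbered 2 and 3, so conditions could not be compared, and the data are from the tagged protein in 1 line and in all embryonic cell types together. The labels do not say whether these flies kept their own untagged Atf-2. Control samples were not analysed here.

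Atf-2 belongs to the basic leucine zipper (bZIP) factors, and the stress kinase p38 phosphorylates it. The response to oxidants runs largely through another bZIP factor, cnc, the fly relative of Nrf2, which pairs with maf-S on antioxidant response elements. Keap1 binds cnc and holds it back, and oxidants release it, after which genes of glutathione metabolism such as GstD1 and Gclc are transcribed. Catalase, the superoxide dismutases and the peroxiredoxins remove hydrogen peroxide and superoxide directly.

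Each region in the deposited lists carries the signal that the authors' peak caller gave it, and ranks below count from 1 at the strongest signal of a list. A list filtered by reproducibility between replicates, as the irreproducible discovery rate (IDR), holds 3265 peaks. They are the 3265 strongest regions of the pooled list, the weakest with a signal of 84.6. There are 30000 regions in the pooled list and in each replicate list, background among them, and a place there is not by itself a call. Signals were not scaled between lists, so replicates are set side by side by rank. No read totals come with the lists, and the depth behind each signal is unknown.

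Of the 10 genes, 3 had an IDR summit within the gene span plus 5 kb on either side, namely Keap1 with 4, Gclc with 2 and ref(2)P with 1, while 39.2% of all protein-coding genes had such a summit. Within 500 bp of an annotated transcription start site (TSS), only Keap1 had an IDR summit, 1 of 10 genes against 14.9% of all protein-coding genes. Neither count stood above the share in the genome, but with 10 kb on either side 7 of the 10 genes had an IDR summit, against 52.8% of all genes, so the order of the span shares turned with the flank. Among the 9223 protein-coding genes no shorter and no longer than the shortest and longest of the 10 (1131 to 13967 bp), 41.6% had an IDR summit in the span plus 5 kb. The 10 genes had a median span of 2626 bp, against 2166 bp for all protein-coding genes. Of the 7 IDR summits, 2 were nearer to a TSS of the named gene than to that of a neighbour, 1 at Keap1 and 1 at Gclc.

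**Figure D1:**
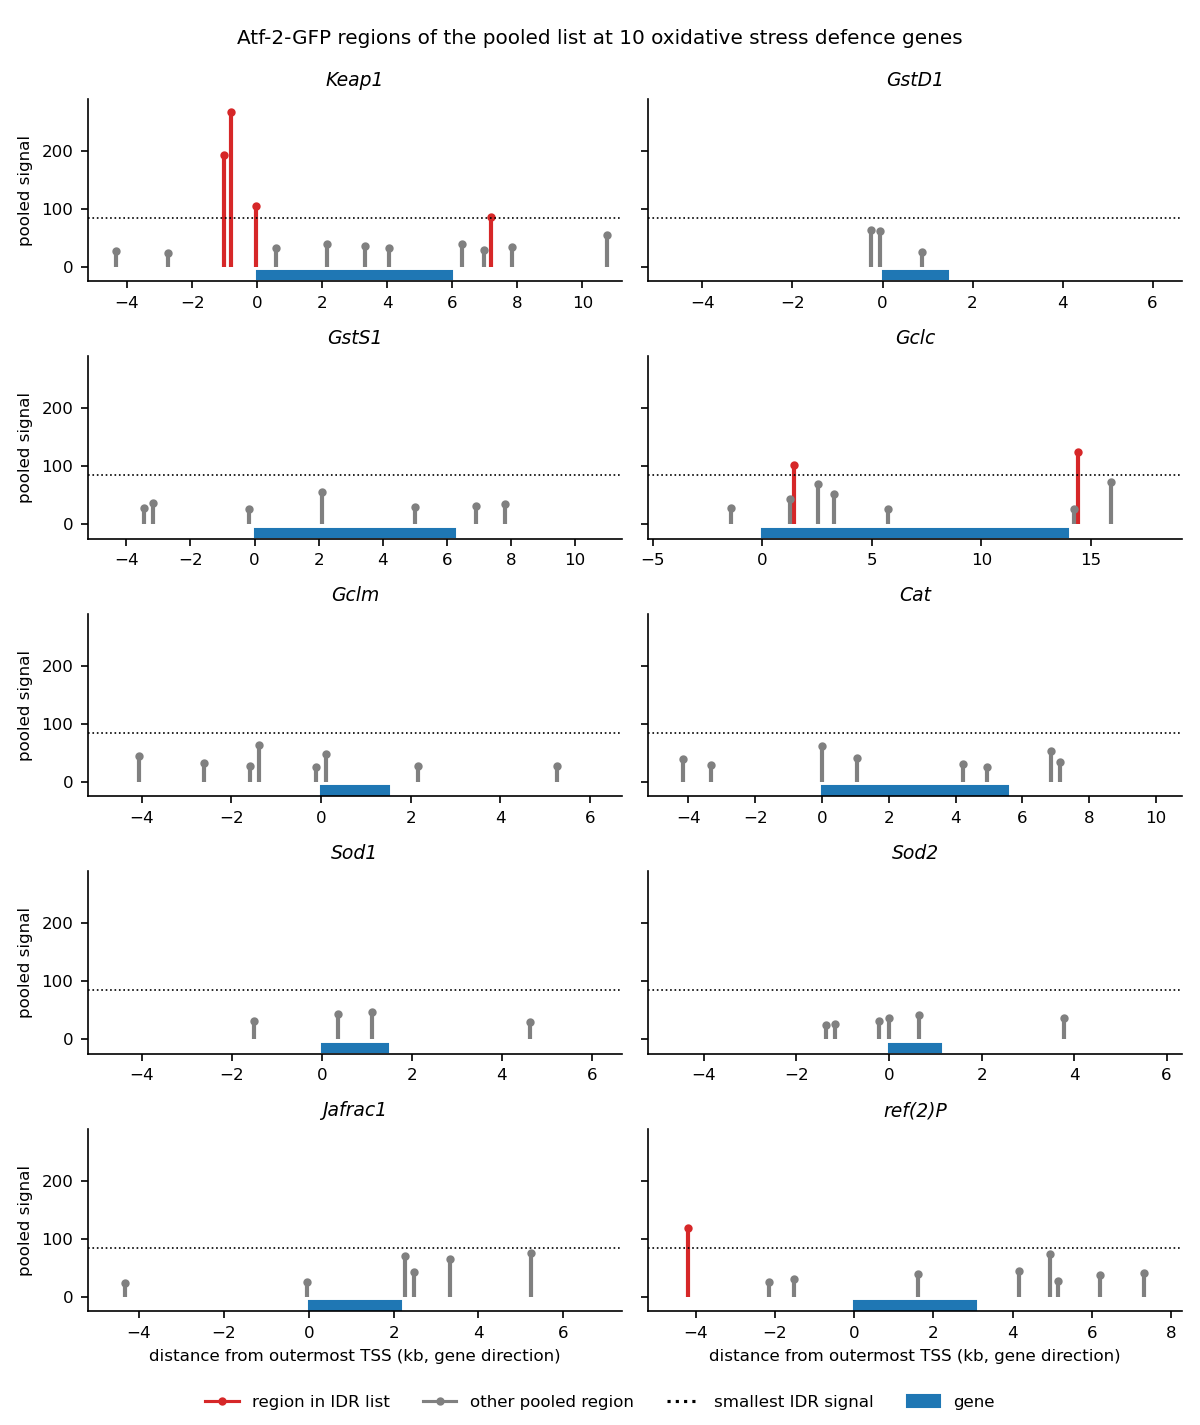
Signal of every pooled region whose summit lies in the span of each gene plus 5 kb, against distance from the outermost TSS in kb along the direction of the gene. Red stems are the 7 regions in the IDR list, at Keap1, Gclc and ref(2)P, grey stems the other pooled regions, the dotted line the smallest IDR signal and the blue bar the gene.

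The sequences around 3 of the IDR summits are shown because they hold a match to a pattern for bZIP sites. They run from 100 bp before to 100 bp after the summit on build dm6, read from the RefSeq genome. The Keap1 summit called distal lay 1021 bp upstream of the Keap1 TSS. It was nearer to the TSS of the neighbouring gene kuk, at 722 bp, and in an intron of kuk. At Keap1 and Gclc, capitals mark the match to TGANTCA, where N is any base, a pattern looser than the AP-1 site. At ref(2)P they mark the match to the CNC-Maf site TGACNNNGC, the core of the antioxidant response element.
Keap1 distal summit, chr3R:17080866-17081066, plus strand: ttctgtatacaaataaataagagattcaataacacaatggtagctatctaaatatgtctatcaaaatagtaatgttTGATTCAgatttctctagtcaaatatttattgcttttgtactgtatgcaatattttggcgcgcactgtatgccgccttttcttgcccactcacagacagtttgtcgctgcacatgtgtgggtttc
Gclc intronic summit, chrX:8114582-8114782, plus strand: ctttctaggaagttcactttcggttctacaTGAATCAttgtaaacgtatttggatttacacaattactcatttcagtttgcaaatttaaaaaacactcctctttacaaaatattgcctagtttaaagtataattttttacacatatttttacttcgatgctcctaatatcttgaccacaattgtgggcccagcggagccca
ref(2)P upstream summit, chr2L:19538181-19538381, plus strand: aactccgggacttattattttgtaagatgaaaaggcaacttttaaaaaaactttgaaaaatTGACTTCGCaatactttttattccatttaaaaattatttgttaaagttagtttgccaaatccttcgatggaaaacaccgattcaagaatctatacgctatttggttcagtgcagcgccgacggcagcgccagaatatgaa

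A second set shows sequence upstream of TSSs, ending at the base before the outermost TSS, and written along the strand of the gene. In Cat and ref(2)P the capitals mark the DRE (TATCGATA), to which the factor DREF binds. In Keap1 they mark the 11 bases centred on the IDR summit, and in GstD1 those centred on the strongest replicate 3 summit.
Cat, chr3L:18822404-18822603, plus strand: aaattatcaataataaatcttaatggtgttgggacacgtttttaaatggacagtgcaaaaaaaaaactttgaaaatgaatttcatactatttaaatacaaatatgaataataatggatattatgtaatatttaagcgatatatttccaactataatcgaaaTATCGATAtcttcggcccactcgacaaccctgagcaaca
ref(2)P, chr2L:19542268-19542467, plus strand: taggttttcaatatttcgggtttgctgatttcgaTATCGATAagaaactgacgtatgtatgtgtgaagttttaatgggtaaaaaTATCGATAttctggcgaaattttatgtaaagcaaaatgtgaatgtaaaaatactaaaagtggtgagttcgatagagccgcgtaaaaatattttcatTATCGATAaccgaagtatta
Keap1, chr3R:17079946-17080095, minus strand: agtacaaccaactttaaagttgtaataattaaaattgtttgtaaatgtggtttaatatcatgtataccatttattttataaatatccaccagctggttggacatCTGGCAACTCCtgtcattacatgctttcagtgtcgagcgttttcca
GstD1, chr3R:12369269-12369568, minus strand: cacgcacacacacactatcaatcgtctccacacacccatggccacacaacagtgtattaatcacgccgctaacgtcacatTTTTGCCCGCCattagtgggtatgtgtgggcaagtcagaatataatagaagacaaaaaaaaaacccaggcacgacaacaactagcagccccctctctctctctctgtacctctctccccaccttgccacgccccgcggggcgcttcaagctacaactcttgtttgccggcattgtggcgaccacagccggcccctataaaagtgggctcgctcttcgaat

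Keap1, the sensor of the pathway, lies on chromosome 3R at 17073942 to 17079945 on the minus strand, and it carried the strongest signals of the 10 genes. Its 4 IDR summits can be set beside the 1.65% of all protein-coding genes with 4 or more in the same span. However, the regions 17080641 to 17080863 and 17080870 to 17080978 adjoin each other, and each was counted. Only the summit at 17079986 was nearer to a TSS of Keap1 than to that of a neighbour. The strongest IDR summit, at 17080762, was 817 bp upstream of the Keap1 TSS. It had a pooled signal of 267 (rank 426), with 181 in replicate 2 (rank 414) and 91.2 in replicate 3 (rank 437). Its ranks were close to each other in the 3 lists. It lay in an intron of kuk, which encodes a protein of the nuclear envelope and is transcribed away from Keap1, and its distance to the kuk TSS was 518 bp. The summit beside it at 17080966, whose window is printed above, had a pooled signal of 194 (rank 824), with 131 in replicate 2 (rank 796) and 56.2 in the replicate 3 region summiting at 17080990 (rank 1196). It was 722 bp from the TSS of kuk and 1021 bp from that of Keap1.

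The summit nearest to the Keap1 TSS, at 17079986 and 41 bp upstream of it in intergenic sequence, was weaker and less even between replicates. Its signal was 104 in the pooled list (rank 2374). In replicate 2 the region had a signal of 83.9 (rank 1761), and in replicate 3 the overlapping region, with its summit 203 bp upstream, had 27.7 (rank 4543) and was nearer to the TSS of kuk, at 96 bp. This promoter was therefore among the 3265 strongest regions of replicate 2 and not of replicate 3. The remaining IDR summit, at 17072741 beyond the 3′ end of Keap1, lay in the 5′ UTR of the mitochondrial ribosomal protein gene mRpS11, 9 bp from its TSS. There the order was the opposite, with 36.7 in replicate 2 (rank 6020) and 48.3 in replicate 3 (rank 1593), and the pooled signal was 86.2 (rank 3184). Within the body of Keap1 the pooled regions had signals under 40 and none was in the IDR list.

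**Figure D2:**
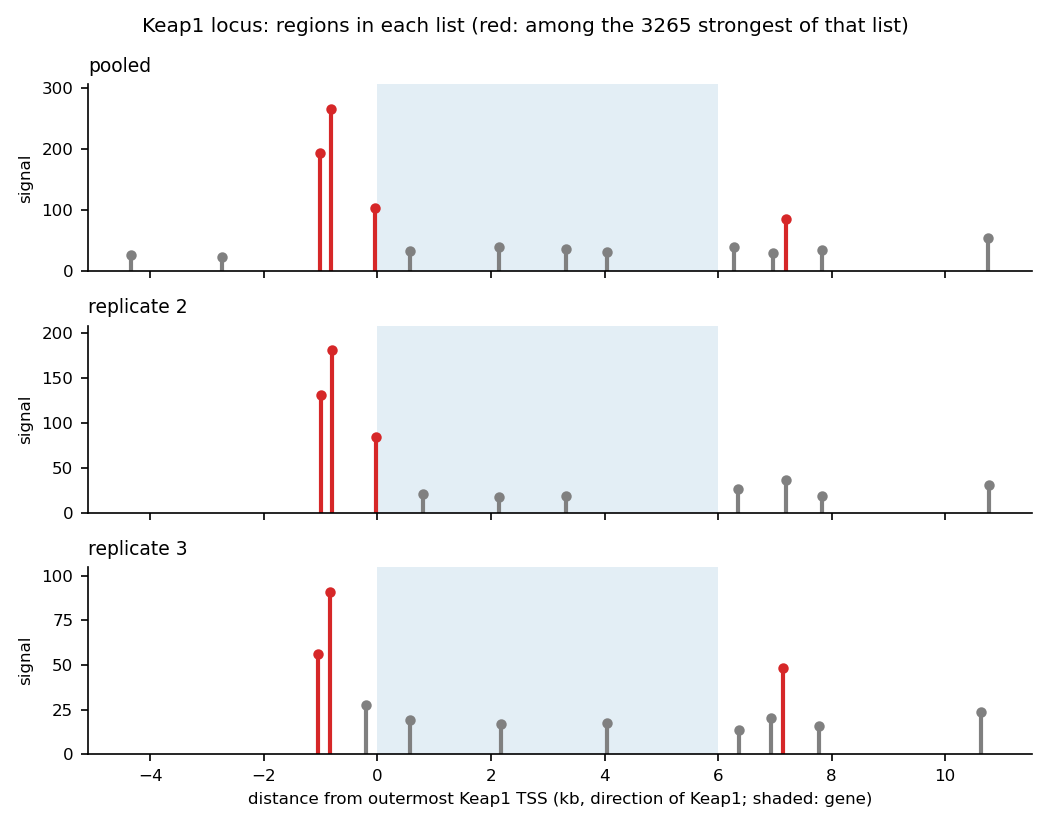
Signal of every region in the Keap1 span plus 5 kb in the pooled list, replicate 2 and replicate 3, against distance from the outermost Keap1 TSS in kb, with the gene shaded and each panel on its own signal scale. Red stems are among the 3265 strongest regions of their list. The pair of summits 817 and 1021 bp upstream is red in all 3 panels, the summit 41 bp upstream in the pooled list has a red counterpart in replicate 2 and a grey one in replicate 3.

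The other regulator-like member, ref(2)P, encodes the fly relative of p62, which links ubiquitinated cargo to autophagy. In mammals p62 also binds Keap1. The gene is on chromosome 2L at 19542468 to 19545548 on the plus strand. Its only IDR summit, at 19538281, was 4187 bp upstream and 144 bp upstream of the neighbouring CG13082, with a pooled signal of 118 (rank 1949), 68.2 in replicate 2 (rank 2426) and 44.4 in replicate 3 (rank 1861). Both replicates thus placed it among their 3265 strongest regions. No pooled and no replicate 2 region was listed within 500 bp of the ref(2)P TSS itself. Replicate 3 had 1 there, of signal 12.6 (rank 25874). The 200 bp printed above hold 3 DREs, and a link between the DRE and Atf-2 signal was not tested. A region downstream, at 19547412 and 453 bp from the TSS of CG10337, missed the IDR list with a pooled signal of 73.5 (rank 4016), and it was ranked 4665 in replicate 2 and 2953 in replicate 3.

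Gclc and Gclm encode the catalytic and the modifier subunit of glutamate-cysteine ligase, which makes the first step of glutathione synthesis, and they differed in where regions lay. Gclc, on chromosome X at 8102181 to 8116147 on the minus strand, had an intronic IDR summit at 8114682, which was 1465 bp downstream of its TSS. The pooled signal there was 102 (rank 2434), with 81.3 in replicate 2 (rank 1831) and 30.1 in replicate 3 (rank 3839). It was thus within the 3265 strongest regions of replicate 2 and outside those of replicate 3. The same intronic stretch held weaker pooled regions 2567 and 3283 bp downstream of the TSS, with signals of 69.6 (rank 4338) and 52.0 (rank 6813). The other IDR summit, at 8101725 beyond the 3′ end of Gclc, lay in the 5′ UTR of CG2258, 271 bp from a TSS of that gene, with signals of 125 pooled (rank 1788), 74.9 in replicate 2 (rank 2089) and 45.5 in replicate 3 (rank 1786). No list had a region within 500 bp of any of the 3 annotated Gclc TSSs.

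Gclm, on chromosome 3R at 22685006 to 22686510 on the minus strand, had no IDR summit in its span plus 5 kb. Its promoter was listed in replicate 3 and not in replicate 2. In replicate 3 a region with its summit 103 bp downstream of the TSS had a signal of 40.7 (rank 2165), replicate 2 had no region within 500 bp, and the pooled region there had a signal of 47.7 (rank 7946) with its summit in the 5′ UTR. The strongest pooled region of the locus, with a signal of 62.7 (rank 5040), was 1392 bp upstream in a coding exon of wfs1.

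The same split between replicates appeared at both glutathione transferases and at catalase. GstD1, a delta class transferase that conjugates glutathione to electrophiles and is used widely as a reporter of cnc activity, lies on chromosome 3R at 12367817 to 12369268 on the minus strand. In replicate 2 its promoter region, 51 bp upstream of the TSS, had a signal of 25.1 (rank 11917), while in replicate 3 a region 215 bp upstream had 47.8 (rank 1632). The pooled list placed summits 51 and 254 bp upstream with signals of 61.4 (rank 5205) and 62.7 (rank 5044), and neither was in the IDR list. GstD1 sits among related delta class genes, and how reads matching several of them were placed is not given in the sources used here.

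GstS1, the sigma class transferase, lies on chromosome 2R at 17093246 to 17099501 on the minus strand. Its strongest region covered an internal TSS. The summit in the pooled list, at 17097410 in the 5′ UTR, was 26 bp downstream of that TSS, with signals of 55.4 pooled (rank 6120), 19.0 in replicate 2 (rank 20647) and 36.3 in replicate 3 (rank 2695). At the outermost TSS the pooled region had a signal of 25.5 (rank 25826).

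Cat encodes catalase, which splits hydrogen peroxide, and lies on chromosome 3L at 18822604 to 18828188 on the plus strand. Its promoter summit in the pooled list was 9 bp upstream of the TSS and 30 bp downstream of the first base of the DRE printed above, with a signal of 62.1 (rank 5120). In replicate 2 the signal was 26.4 (rank 10809) and in replicate 3 it was 33.7 (rank 3101), just inside the 3265 strongest. The other pooled regions of the locus had signals of 25.8 to 53.2.

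Set against the genome, 4 of the 10 genes, GstD1, GstS1, Gclm and Cat, had a summit within 500 bp of a TSS among the 3265 strongest regions of replicate 3, where 14.1% of all protein-coding genes had one. In replicate 2 the corresponding count was 1 of 10, Keap1, against 15.0% of all genes. The 4 genes had none among the strongest regions of replicate 2, a combination found in 3.07% of all genes, while Keap1 alone had the opposite one, found in 3.95%. No member had a promoter region among the strongest of both replicates, as 11.1% of all genes did. With the further demand that replicate 2 list no promoter region ranked 10000 or better, a limit chosen after the values were seen, the same 4 members remained, beside 0.688% of all genes. The reverse combination, strong in replicate 2 and at best ranked beyond 10000 in replicate 3, was found at 0 members and 1.10% of genes. In the wider span plus 5 kb, 7 of the 10 genes had one of the strongest regions of replicate 3, against 38.2% of all genes, and 3 had one of replicate 2, against 39.3%. The same 4 genes had one in replicate 3 but not in replicate 2, against 5.85% of all genes. They were counted through the same promoter regions, so this is not a separate result. The reverse was found at 0 genes, against 6.97%, and Keap1, Gclc and ref(2)P had one in both, against 32.4%. For promoters with a limit of rank 20000 only GstS1 and Gclm were counted, beside 0.373% of genes.

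**Figure D3:**
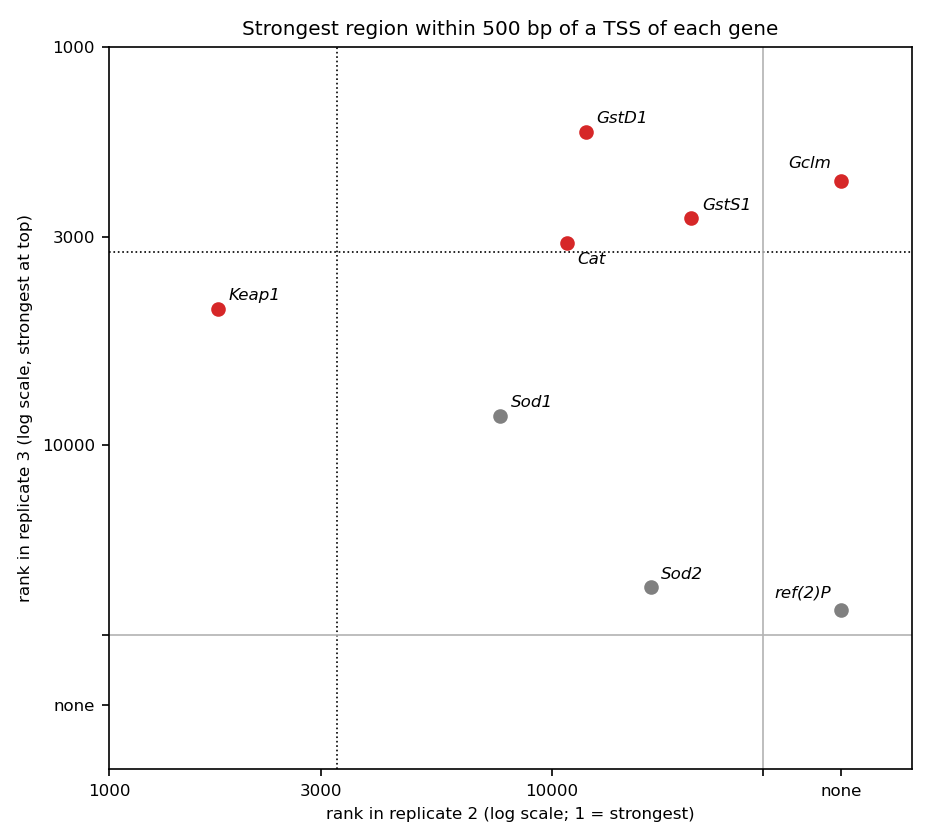
Rank of the strongest region within 500 bp of a TSS in replicate 2 (horizontal) and replicate 3 (vertical, strongest at the top), both on log scales, for the 8 genes with such a region in at least 1 replicate. Points beyond the grey lines had no region in that replicate, the dotted lines mark rank 3265, and red points pass it in 1 replicate. GstD1, GstS1, Gclm and Cat are above the line of replicate 3 and at rank 10809 or weaker in replicate 2, and Keap1 is past the line of replicate 2 alone.

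Promoter signals were also set as a ratio between replicates at genes with a promoter region in both, so not at Gclm, Gclc, Jafrac1 or ref(2)P. Each ratio takes the strongest promoter region of each replicate, and these need not share a summit. In replicates 2 and 3 the summits were 23 and 203 bp upstream at Keap1, and 51 and 215 bp upstream at GstD1. GstD1, GstS1 and Cat were named above through the same regions, as strong in replicate 3 only, and Keap1 as the reverse. Their low and high ratios therefore largely follow from that choice and are not separate evidence. Across 5396 protein-coding genes with a promoter region in both replicates, replicate 2 had a median 1.69 times the signal of replicate 3, and 1.82 times among the 1934 whose replicate 3 region was one of the 3265 strongest. The ratio was 0.526 at GstD1, and 0.500% of genes had one as low. At GstS1 the ratio was 0.523 (0.445% of genes as low) and at Cat 0.784 (4.26% of genes as low). Keap1 lay toward the other side with 3.03, and 7.25% of genes had a ratio as high. Sod1 and Sod2, with 1.52 and 1.57, were close to the median. These ratios compare 2 libraries whose depths are unknown, and no part of the difference could be tested with 1 library of each replicate.

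**Figure D4:**
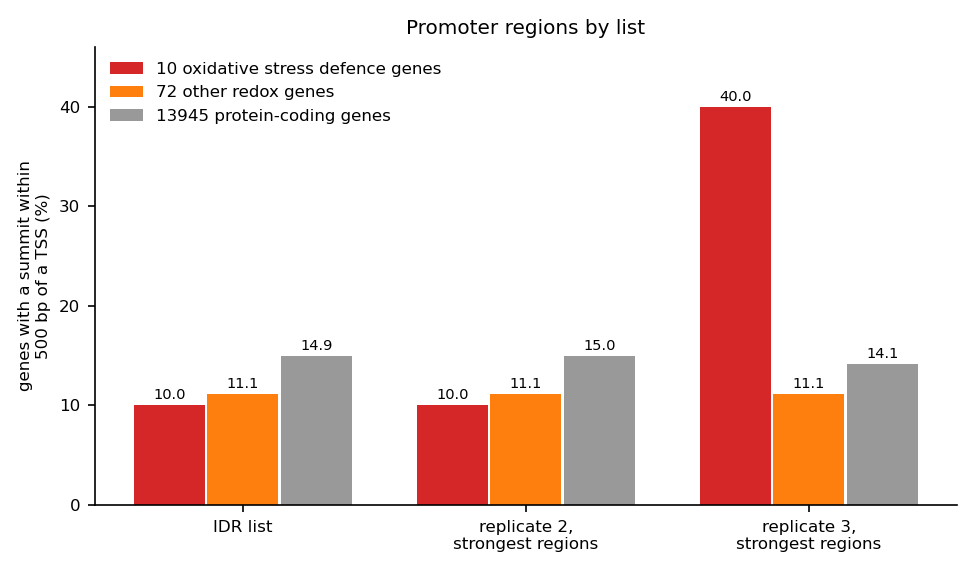
Percentage of genes with a summit within 500 bp of a TSS in the IDR list and among the 3265 strongest regions of replicate 2 and of replicate 3, for the 10 oxidative stress defence genes (red), 72 other redox genes (orange) and all 13945 protein-coding genes (grey). The red bar is at 40% in replicate 3 and 10% in the other lists, with 11.1% for the other redox genes in each list and 14.1 to 15.0% for all genes.

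The superoxide dismutases showed the weakest loci. Sod1, the cytosolic copper and zinc enzyme on chromosome 3L at 11112281 to 11113740 on the minus strand, had its strongest pooled region 1104 bp downstream of the TSS in a coding exon, with a signal of 47.6 (rank 7975). Its region closest to the TSS was intronic, with its pooled summit 360 bp downstream and signals of 43.8 pooled (rank 9339), 31.8 in replicate 2 (rank 7629) and 21.0 in replicate 3 (rank 8426). Sod2, the mitochondrial manganese enzyme on chromosome 2R at 16772785 to 16773915 on the minus strand, had a pooled signal of 37.0 (rank 12881) 9 bp from its TSS, and its strongest promoter regions ranked 16721 in replicate 2 and 22706 in replicate 3. Its strongest pooled region had a signal of 42.6 (rank 9836) in a coding exon. In no list did either gene have a region among the 3265 strongest.

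Jafrac1 is a cytosolic peroxiredoxin, which reduces peroxides with thioredoxin, and lies on chromosome X at 13329824 to 13331994 on the plus strand. It came nearest to the IDR list of the 7 genes without an IDR summit. A pooled region at 13335050, beyond the 3′ end and 2588 bp from a TSS of the ribosomal protein gene RpS15Aa, had a signal of 75.0 (rank 3901), with 47.6 in replicate 2 (rank 4093) and 27.1 in replicate 3 (rank 4782). A pooled region at 13332089, just beyond the gene's 3′ end, had 69.9 (rank 4311) but was uneven, with 45.2 in replicate 2 (rank 4428) and 14.5 in replicate 3 (rank 19422). At its promoter the pooled region had a signal of 25.4 (rank 26058), 30 bp from the TSS, and neither replicate listed a region within 500 bp of a TSS.

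In all, 74 pooled regions had their summits at the 10 genes, and 7 of them (9.46%) were IDR peaks, against 10.9% of all pooled regions. Their median signal was 36.8, against 34.1 over all pooled regions. A region of any rank overlapped in both replicates for 50 of the 74 (67.6%), against 55.5% of all 30000. By position, 26 of the 74 summits were in coding exons, 20 in introns, 17 in intergenic sequence, 10 in 5′ UTRs and 1 in a noncoding exon. None of the 26 in coding exons was an IDR peak, while 3 intronic, 2 intergenic and 2 5′ UTR summits were. The same shares by position were not computed over all 30000 pooled regions. These counts therefore cannot be read as a trait of the 10 genes. The strongest pooled promoter region had a median signal of 45.8 over the 10 genes, counting genes with none as 0, against 24.1 over all genes. That difference came from the genes with none, since the median was 51.6 over the 8 of the 10 with a promoter region and 51.4 over all genes with one. A promoter region of any rank was listed for 8 of the 10 genes in the pooled list, against 51.1% of all genes.

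Of 8 short motifs sought at the 7 IDR summits, 3 had a match, 4 matches in all. Each of these 3 rests on 1 or 2 windows. In 7 windows, a single match already gives a larger share than any of the 8 had over all IDR windows. The shares are therefore set side by side without a reading. Searched on both strands within 100 bp, the cAMP response element (CRE) TGACGTCA was at 0 of the 7 IDR summits and in 0.490% of all IDR windows. The AP-1 site is bound by Jun and Fos dimers, but the pattern sought, TGANTCA, allows any base at its centre. This pattern was at 2 of the 7, against 5.02% of all IDR windows. The matches were TGATTCA, 24 bp from the Keap1 summit at 17080966, and TGAATCA, 70 bp from the Gclc intronic summit. Both had A or T at the open base, so neither match is called an AP-1 site here. The CNC-Maf site was at 1 of the 7, 39 bp from the ref(2)P upstream summit, against 5.24% of all IDR windows. An E-box, CACGTG, lay 93 bp from the mRpS11 summit, against 2.24% of all IDR windows. The PAR bZIP site TTACGTAA, the CEBP-ATF site TGATGCAA and the CRE variant TGACGTAA had no match at the 7 summits. Over all IDR windows their shares were 0.490%, 0.643% and 0.184%, so few matches could be found in 7 windows. The DRE had no match there either, against 3.74% of all IDR windows. The 10 promoters were read from 250 bp before to 50 bp after the outermost TSS. They held no match to the CRE, the pattern TGANTCA or the CNC-Maf site. Of all protein-coding promoters, 0.437%, 6.18% and 8.63% held one. The DRE was in 2 of the 10, Cat with 1 and ref(2)P with 3, against 9.36% of all promoters. An E-box was in 1 of the 10, that of Gclc, against 4.20% of all promoters. A match is a run of letters and not a measured site.

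Other genes of the redox system were read from a list of 72, of which 30 (41.7%) had an IDR summit in the span plus 5 kb and 8 (11.1%) within 500 bp of a TSS, against 39.2% and 14.9% of all protein-coding genes. Neighbouring genes of this list can share a summit, as some glutathione transferase genes did, so these are counts of genes and not of separate peaks. The shares of all protein-coding genes were counted in the same way. Among 8 regulators the promoter peaks were at cnc and Sesn. The cnc summit, 304 bp downstream of a TSS, had signals of 126 pooled (rank 1733), 85.9 in replicate 2 (rank 1699) and 37.9 in replicate 3 (rank 2480). Sesn, a sestrin that restrains TOR, had a summit 220 bp upstream and equally far from CG46429, with signals of 661 pooled (rank 51), 448 in replicate 2 (rank 52) and 208 in replicate 3 (rank 57).

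Among 36 further glutathione transferase genes, 2 had a promoter peak. GstE13 had a signal of 772 (rank 38), with rank 32 in replicate 2 and 48 in replicate 3, so that both replicates placed this transferase promoter far above those of GstD1 and GstS1. GstT4 had 131 (rank 1639), with rank 1523 in replicate 2 and 3864 in replicate 3. The ferritin genes Fer1HCH and Fer2LCH, which store iron, share 1 divergent promoter peak with signals of 688 pooled (rank 46), 454 in replicate 2 (rank 49) and 233 in replicate 3 (rank 44).

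Zw, which encodes glucose-6-phosphate dehydrogenase and so supplies NADPH, had a promoter summit of 95.1 (rank 2748). A stronger summit of 477 (rank 109) lay inside the gene, 1132 bp upstream of an internal TSS. The remaining gene with a promoter peak was Prx6005, a peroxiredoxin gene listed in the annotation as Prx6a, with 87.3 (rank 3112). For Txl, a relative of the thioredoxins, and for the copper delivery and methionine sulfoxide repair classes, the strongest summits in the span plus 5 kb were nearer to neighbours, at Txl (250, 53 bp from the TSS of scny), MsrA (381, 101 bp from CG7841) and Ccs (119, 90 bp from dmpd). Neither glutathione synthase gene of the list, Gss1 or Gss2, had an IDR summit. Among the 72 genes, 2 (GstE12 and Zw) had a promoter region among the strongest of replicate 3 and not of replicate 2, against 3.07% of all genes, and 2 (GstT4 and Prx6005) had the reverse, against 3.95%. In the span plus 5 kb, 10 of the 72 had a region among the strongest of replicate 3 only, against 5.85% of all genes, and 4 of replicate 2 only, against 6.97%. Of the 10, 5 were delta class transferase genes: GstD2, GstD3, GstD4, GstD9 and GstD10, each counted through the replicate 3 region at the GstD1 promoter. With the rank limit of 10000 for replicate 2, chosen after the values were seen, 0 of the 72 promoters were strong in replicate 3 alone. That count is near the share of all genes, 0.688%.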

How the data were processed

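ChIP-seq with an antibody to GFP had been done on 2 biological replicates of Atf-2-GFP embryos, with sonicated fragments of 200 to 800 bp, per the labels. According to the readme texts deposited with the samples, a control went into every replicate list and into the pooled list, and those 3 lists gave the IDR list, all on dm6. The signal per region is the value deposited by the authors' peak caller. The deposited −log10 q-value is the same for all IDR peaks and was not used for ranking. Aligner, caller and IDR threshold were not given in the sources used here. Lists on dm3 were not used.

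Summits were assigned to genes with the Ensembl release 115 annotation and the Release 6 sequence (RefSeq), in Python 3.11.15 with numpy 2.4.6, pandas 2.3.3, scipy 1.17.1 and matplotlib 3.10.9. Regions matched between lists where they shared 1 bp, the one of higher signal being taken. The exception is the Keap1 summit at 17080966, for which the replicate 3 region with the nearer summit is given. For a replicate alone, its strongest 3265 regions stood in for the IDR list. Coordinates count from 1. Gene counting was tested on simulated data. Depth is unknown, so values carry no counting interval. No test was run. The alternatives changed the flank, the TSS distance, the TSSs used, the list, the overlap and the motif window. All 10 genes are named. Of the other redox genes, those with a promoter peak and the strongest of each class are named, and the rest of the names are neighbouring or host genes of a summit. GstE12, the 5 delta class genes, Gss1 and Gss2 were named after their values were seen. The genes, the lists and the rank limits were chosen with earlier results of these data known.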

Additional observations from a re-analysis of the deposited data

How the results depend on the processing

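The count of the 10 genes with an IDR summit in the span plus 5 kb, 3, was 7 with 10 kb on either side (52.8% of all protein-coding genes), 1 with the gene span alone (Gclc) and 1 in the stronger 1632 IDR peaks (Keap1). It ranged from 3 to 7 when a replicate was left out, the 7 being without replicate 2 and adding GstD1, GstS1, Gclm and Cat. The count with a summit within 500 bp of a TSS, 1, was 0 in the stronger 1632 IDR peaks and ranged from 1 to 4 when a replicate was left out. Without replicate 2 it was 4 and no longer held Keap1. Among the 72 other redox genes, the span count of 30 was 18 (25%) with 2 kb, where all genes had 27.6%, 7 with the gene span alone and 16 in the stronger peaks, and the promoter count of 8 was 5 (6.94%) within 250 bp, where all genes had 11.8%, and 4 in the stronger peaks. The share of all protein-coding genes was 9.39% with the gene span alone, and in the stronger peaks 24.4% for the span and 8.28% for promoters. The count of genes strong in replicate 3 and weak in replicate 2, 4, was 2 with a replicate 2 limit of rank 20000 (0.373% of all genes) and 1 with a replicate 3 limit of rank 1632 (GstD1, 0.0932% of all genes), settings chosen after seeing the data. It was 4 with limits of rank 5000 for replicate 2 (1.77% of all genes) or 6530 for replicate 3 (3.36%), against 0.688% in the main setting. Motif matches at the 7 summits numbered 4 within 100 bp, 2 within 50 bp and 6 within 250 bp. No paired analysis was possible because there was 1 group. The cause of these changes was not tested beyond the larger or smaller windows and lists themselves. Unknown depth limits every rank.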

Other observations

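The CNC-Maf site TGACNNNGC was also sought in the 2000 bp upstream of each outermost TSS, a search added after the other values were seen. It was present at 6 of the 10 genes, namely GstD1, GstS1, Gclc, Gclm, Sod2 and Jafrac1, and at 47.8% of all protein-coding genes. In GstD1 the match was centred 1249 bp upstream and in Gclc 401 bp upstream, and no pooled region covered either. The match 1645 bp upstream of Gclm was covered by a pooled region of signal 27.6 (rank 22462), and the one 1309 bp upstream of Sod2 by a region of signal 27.0 (rank 23413). No match upstream of these genes lay in an IDR peak.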
